A study of Mus musculus with 12 samples.

Results

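The 10 genes described here build or decorate elastic fibres, and were followed through adipocyte differentiation in mouse cells with Acly intact or deleted. They were chosen by name, as the rows of the deposited expression table for Fbn1, Fbln1, Fbln2, Fbln5, Fbln7, Efemp1, Efemp2, Eln, Mfap4 and Mfap5, which is 10 of the 24341 genes in the table. That choice was made with earlier results of these data known. All 10 were found, and 7 reached 1 FPKM in at least 3 of the 12 libraries and were tested. The unit, FPKM, counts fragments per kilobase of a transcript relative to the size of the library, and allows levels of different genes to be set side by side. Efemp1, Eln and Mfap4 did not reach that level and are given as values, without a test in this fit.

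The cells were preadipocytes from adipose tissue of C57Bl/6 mice, immortalised with SV40 and grown to confluence in DMEM with 10% FBS. They fell into 4 groups of 3 libraries. On day 0 preadipocytes of the genotypes Aclyf/f and Acly-/- were taken. Adipocytes of both genotypes were taken on day 4 after the addition of an adipogenic cocktail that contained rosiglitazone, an activator of PPAR-gamma. Where 4 levels are listed in a row, the order is preadipocytes with Acly, preadipocytes without it, adipocytes with Acly and adipocytes without it. Aclyf/f cells carry loxP-flanked Acly, the gene of ATP citrate lyase, which makes acetyl-CoA from citrate outside mitochondria, and they served as the control genotype. Every group therefore carried SV40, and both adipocyte groups had been given the same cocktail. The sources used here do not say by which means Acly was deleted, or whether libraries of a group came from separate clones, cultures or animals. The p-values measure just the spread between these libraries, which may be technical.

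Elastic fibres are extracellular cables with a core of elastin laid on a scaffold of microfibrils. The microfibrils are polymers of fibrillin, to which microfibril-associated glycoproteins attach. Fibulins bridge elastin and fibrillin, and lysyl oxidases then crosslink the elastin. Fibrillin also holds latent TGF-beta complexes in the matrix through the latent TGF-beta binding proteins, and the C-terminal end of profibrillin-1, released by furin, is the circulating peptide asprosin, for which fat is a known source.

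Promoter sequences are shown for 4 of the members that differed in preadipocytes without Acly, Fbn1 and Fbln2 (higher) and Fbln1 and Fbln7 (lower). Efemp2, also lower there, has a window with GGGCGG that is not shown, and for Mfap5, also lower, no window was found. Each is the 250 bases before the RefSeq start, on GRCm38.p6 (mm10), read 5′ to 3′ on the strand of the gene. Fbn1 is at chr2:125506439-125506688 on the minus strand. Fbln2 is at chr6:91212514-91212763, Fbln1 at chr15:85205758-85206007 and Fbln7 at chr2:128863682-128863931, all on the plus strand. Capitals mark any match, on either strand, to the 7 motifs searched, which were the TATA box letters TATAAA, the CCAAT box letters CCAAT, the GC box letters GGGCGG, the AP-1 letters TGANTCA, the TEAD letters GGAATG, the nuclear receptor half-site letters AGGTCA and the CArG box of serum response factor.
Fbn1: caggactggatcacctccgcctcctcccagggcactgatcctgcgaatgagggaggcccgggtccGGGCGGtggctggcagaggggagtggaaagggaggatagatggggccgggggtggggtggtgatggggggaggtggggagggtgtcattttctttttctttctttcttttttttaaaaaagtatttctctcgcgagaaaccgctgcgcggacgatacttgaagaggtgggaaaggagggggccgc
Fbln2: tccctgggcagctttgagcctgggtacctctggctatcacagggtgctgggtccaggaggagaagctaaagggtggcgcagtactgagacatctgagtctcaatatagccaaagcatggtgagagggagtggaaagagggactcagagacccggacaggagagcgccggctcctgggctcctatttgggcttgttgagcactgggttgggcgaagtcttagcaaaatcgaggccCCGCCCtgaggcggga
Fbln1: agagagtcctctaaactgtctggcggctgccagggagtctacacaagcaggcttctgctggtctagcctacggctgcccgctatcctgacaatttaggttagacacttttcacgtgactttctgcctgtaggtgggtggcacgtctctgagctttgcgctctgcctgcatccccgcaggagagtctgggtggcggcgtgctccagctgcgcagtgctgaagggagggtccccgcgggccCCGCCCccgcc
Fbln7: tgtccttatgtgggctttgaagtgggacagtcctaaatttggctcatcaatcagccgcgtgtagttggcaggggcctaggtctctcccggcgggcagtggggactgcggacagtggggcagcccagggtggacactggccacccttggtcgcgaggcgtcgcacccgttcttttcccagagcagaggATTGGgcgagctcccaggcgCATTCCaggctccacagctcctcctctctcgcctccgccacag
The GC-box letters GGGCGG were in the Fbn1, Fbln2 and Fbln1 windows and not in the Fbln7 window. Fbln7 instead held CCAAT (reverse strand, 63 bases before the start) and GGAATG (reverse strand, 43 bases before it), which none of the other 3 windows held. Windows were found for 7 of the 10 members. GGGCGG occurred in 6 of these 7 and in 32.7% of 32851 windows of the same length. CCAAT was in 2 (33.8% of all windows), and TGANTCA (6.75%), GGAATG (12.6%) and AGGTCA (14.0%) were in 1 each. TATAAA (12.4%) and the CArG box (1.47%) were in 0 of the 7. Searched motifs could overlap one another, as GGGCGG does with itself in Efemp2, and a match is a description of the letters, not evidence of a bound factor. GC content of the 7 windows was 53.6% to 75.6%, against a median of 52.4% over all windows.

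Acly was checked first. It lay between 84.9 and 89.5 FPKM in Aclyf/f preadipocytes and between 11.9 and 12.5 FPKM in Acly-/- preadipocytes. In adipocytes it lay between 722.4 and 814 FPKM with the gene intact and between 11.02 and 13.2 FPKM with it deleted, so that every library fell on the side of its label. Estimated depth was 7.1 to 13.7 (in units of 1e+06 fragments) per library, a 1.93-fold range. Acly-/- preadipocyte library 3 stood apart in that its 10 most abundant genes took 15.5% of summed FPKM (6.21% to 9.07% in the other 11), and results that rest on that group are given without it where its removal matters. Adipocyte markers (8 genes, with Lep at the floor of the table) summed to 1050.3 to 1119 FPKM with Acly and 628 to 694 FPKM without it in preadipocytes. In adipocytes they summed to 11272 to 12081 FPKM with Acly and 6697 to 8262 FPKM without. Fabp4 made up most of the adipocyte sum, with means of 8835 FPKM with Acly and 6113 FPKM without. Single markers differed more or less than the sum, with means of 544 and 60.7 FPKM for Adipoq, 272 and 18.6 for Cfd, and 161 and 148 for Pparg. Of the defining markers of other cell types, Cdh5, Tek and Tie1 of endothelium and Ptprc, Adgre1, Itgam and Mrc1 of leukocytes had group means under 0.1 FPKM in all 4 groups. Other such markers were low but not absent, with group means of at most 0.214 FPKM for Pecam1, 0.184 for Emcn, 0.171 for Vwf and 1.37 for Kdr of endothelium, and of at most 0.581 FPKM for Lyz2, 0.360 for Csf1r and 3.63 for Cd14 of leukocytes.

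In the control genotype, 4 members carried nearly all of the transcript: Efemp2, Fbln2, Fbn1 and Fbln1 in Aclyf/f preadipocytes, at 401 ± 14.3, 395 ± 17.0, 179 ± 4.46 and 139 ± 5.03 FPKM (mean ± SD, n = 3). The ranges of Efemp2 and Fbln2 overlapped there, and these genes ranked 179 and 183 by level among the 24341. Fbln7 (12.4 ± 1.05 FPKM), Mfap5 (7.17 ± 0.379 FPKM) and Fbln5 (4.05 ± 0.470 FPKM) followed, each below the one before in every library. Efemp1, Eln and Mfap4 were under 1 FPKM on average. These cells thus held a high level of transcripts for the fibrillin scaffold and for fibulins, with elastin itself near the limit of detection. In bulk RNA, fewer cells that express a gene and less RNA per cell cannot be told apart, here and in every comparison that follows.

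**Figure D1:**
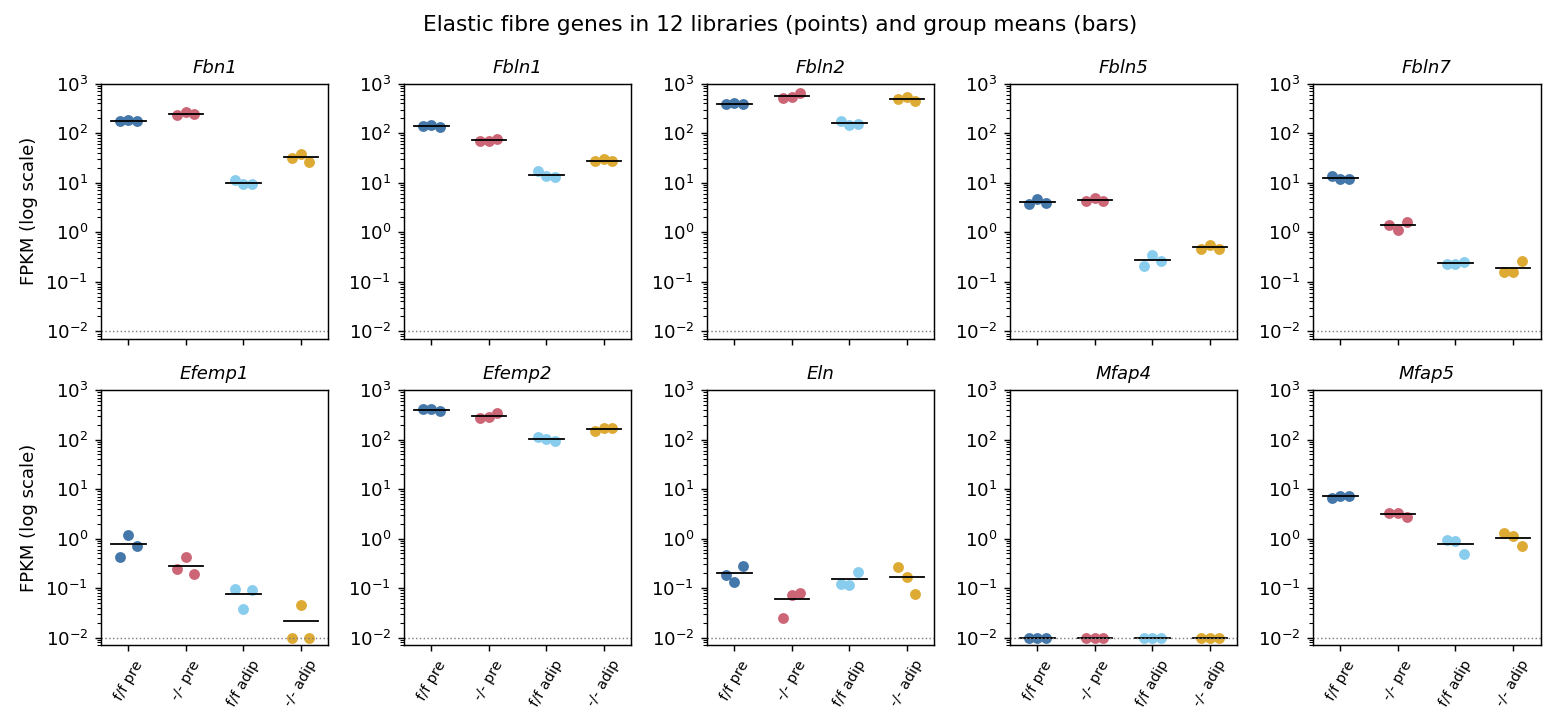
FPKM (log scale) of each of the 10 genes in the 12 libraries, by group, where f/f is Aclyf/f and -/- is Acly-/-, pre is preadipocyte (day 0) and adip is adipocyte (day 4); points are libraries, bars are group means and the dotted line is the 0.01 FPKM floor of the table. Fbn1, Fbln2, Efemp2 and Fbln1 lie highest, Fbln7 shows a step down between the preadipocyte genotypes, and Mfap4 is on the floor in all 12 libraries.

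The first comparison asked what the deletion of Acly went with before differentiation. Of the 7 members tested, Fbn1 and Fbln2 rose, and Fbln1, Efemp2, Mfap5 and Fbln7 fell, while Fbln5 did not pass the test. That is 6 of 7 called at an adjusted p under 0.05 (limma, Benjamini-Hochberg over all 11777 genes tested), against 42.2% of all genes tested. Numbers in brackets ahead of an adjusted p are log2 fold changes on the log2(FPKM + 1) scale from this fit, with their standard error (SE). In single directions it is 2 of 7 called higher against 19.7% of all genes, and 4 of 7 called lower against 22.4%. Since the members were chosen with earlier results known, counts of members beside shares of all genes are a description, here and below. The members' median log2 fold change was -0.41, that of all genes -0.01. Rescaling each library to the same FPKM sum moved the share of higher calls among all called genes from 46.8% to 34.7%, and kept all 6 members called in the same directions.

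In adipocytes the deletion went with higher levels: Fbn1, Fbln2, Fbln1 and Efemp2 rose, which is 4 of 7 called, and 0 fell. Over all genes tested 54.8% were called in this comparison, 25.6% higher and 29.2% lower. The members' median log2 fold change was 0.65, that of all genes -0.02. Rescaling to the same sum moved the share of higher calls among all called genes from 46.7% to 36.4%, and the same 4 members remained called higher.

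Differentiation in Aclyf/f cells went with a fall of all 7 tested members, where 72.5% of all genes tested were called, 36.5% higher and 36% lower. In Acly-/- cells 6 of 7 fell, with Fbln2 as the exception, where 61.4% of all genes were called, 30.4% higher and 31% lower. Fbln5 and Fbln7 stayed under 1 FPKM in every adipocyte library and passed the filter of 1 FPKM in 3 libraries through preadipocytes alone. That filter thus set the direction of their falls, which add no support to these counts. Mfap5 also needed preadipocyte libraries to pass. The change with differentiation itself differed between genotypes for 6 of the 7, each with a less negative change in Acly-/- cells, where the difference was called for 50.2% of all genes tested, 23.7% in this direction and 26.4% in the other. For Fbln7 this difference (2.45) restates the one between preadipocyte genotypes (-2.50, and -0.05 in adipocytes) and adds no support to the count. For Mfap5 (1.20) the genotype difference was -0.99 in preadipocytes, and that in adipocytes (0.21) did not pass the test. These comparisons share their groups: the Aclyf/f adipocytes, for example, enter both the effect of Acly loss in adipocytes and the differentiation of Aclyf/f cells.

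**Figure D2:**
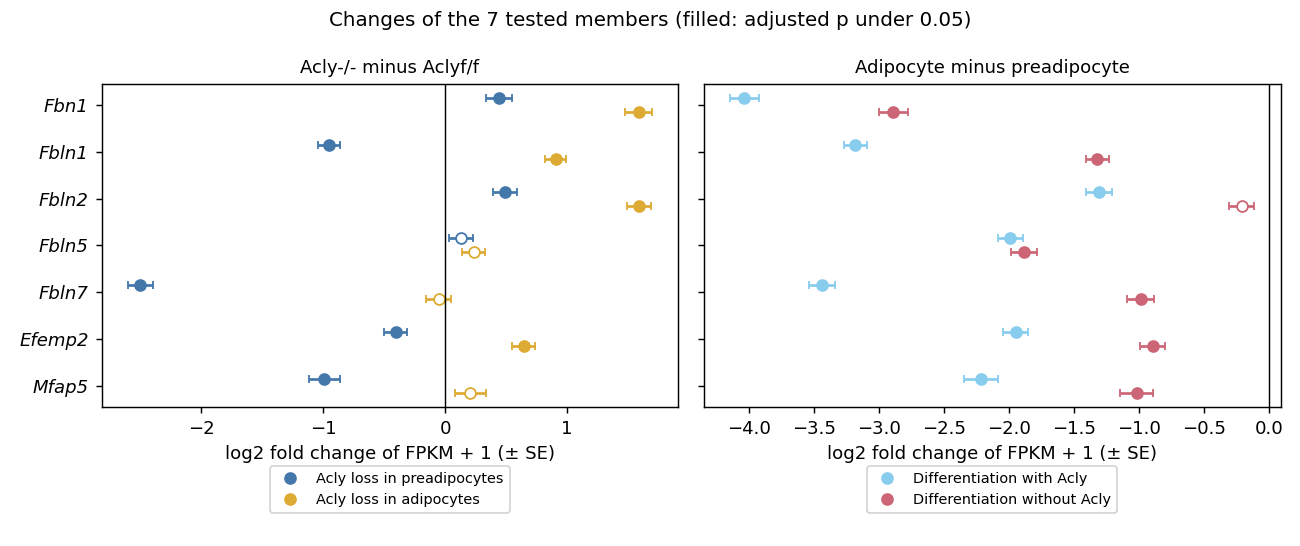
Log2 fold change of FPKM + 1 with its standard error for the 7 tested genes, for Acly-/- minus Aclyf/f on the left and for adipocyte minus preadipocyte on the right; filled points have an adjusted p under 0.05. Fbln1 and Efemp2 lie left of 0 in preadipocytes and right of 0 in adipocytes, and each differentiation point without Acly lies nearer to 0 than the point with Acly.

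Fbn1 (chromosome 2, 125300594 to 125506438, minus strand, mm10) encodes fibrillin-1, the backbone of microfibrils. It stood at 175, 183 and 180 FPKM in the Aclyf/f and at 232, 262 and 239 FPKM in the Acly-/- preadipocyte libraries. In adipocytes it stood at 11.2, 9.49 and 9.43 FPKM with Acly and at 32.1, 38.6 and 26.7 FPKM without. No group overlapped another: both adipocyte groups lay below both preadipocyte groups, and at each stage every Acly-/- library lay above every Aclyf/f library. Mean FPKM was 1.36-fold higher without Acly in preadipocytes (0.44, SE 0.11, adjusted p = 0.00548) and 3.24-fold higher in adipocytes (1.59, SE 0.11, adjusted p = 6.47e-08). With differentiation Fbn1 became 17.9-fold lower in Aclyf/f cells (-4.03, SE 0.11, adjusted p = 8.73e-13), the 116th largest change of either sign among all genes tested. In Acly-/- cells it became 7.54-fold lower (-2.89, adjusted p = 7.04e-11), and the difference between both falls was 1.15 on the log2 scale (SE 0.16, adjusted p = 4.85e-05). An exon of the annotated gene Gm9913 overlaps Fbn1 on the opposite strand, and since the handling of strand is not given in the sources used here, fragments of both cannot be told apart.

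Mfap5, which encodes the microfibril-associated glycoprotein MAGP-2 that binds fibrillin, lies on chromosome 6 (122513676 to 122529287, plus strand). Its levels were low, at 6.73, 7.38 and 7.39 FPKM with Acly and 3.31, 3.26 and 2.78 FPKM without it in preadipocytes. In adipocytes they were 0.927, 0.900 and 0.482 FPKM with Acly and 1.29, 1.12 and 0.721 FPKM without. The preadipocyte genotypes did not overlap, and those of adipocytes did. Mfap5 was 2.30-fold lower without Acly in preadipocytes (log2 fold change -0.99, SE 0.13, adjusted p = 3.71e-05), and in adipocytes the difference did not pass the test (0.21, SE 0.13, adjusted p = 0.188). Without Acly-/- adipocyte library 3 it was 0.32 (adjusted p = 0.0489), and over the alternatives tried its adjusted p ranged from 0.0489 to 0.609. With differentiation Mfap5 became 9.31-fold lower in Aclyf/f cells (-2.22, adjusted p = 2.03e-09) and 2.99-fold lower in Acly-/- cells (-1.02, adjusted p = 1.1e-05). The change with differentiation differed between genotypes by 1.20 (SE 0.18, adjusted p = 0.000119). Fbn1 and Mfap5, both of the microfibril, thus had opposite signs of change with Acly loss in preadipocytes. Mfap4, a further microfibril-associated protein gene (chromosome 11, 61485444 to 61488704, plus strand), was listed at the floor of 0.01 FPKM in all 12 libraries.

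Fbln2 (chromosome 6, 91212764 to 91272540, plus strand) encodes fibulin-2, which binds fibrillin, fibronectin and other matrix proteins. Its libraries stood at 391, 413 and 380 FPKM in Aclyf/f preadipocytes and at 513, 530 and 636 FPKM in Acly-/- preadipocytes. Adipocyte levels were 175, 149 and 153 FPKM in Aclyf/f and 479, 529 and 438 FPKM in Acly-/- cells. The Aclyf/f adipocytes were the low group, and the Acly-/- adipocytes overlapped the Acly-/- preadipocytes. Without Acly the mean was 1.42-fold higher in preadipocytes (log2 fold change 0.50, SE 0.10, adjusted p = 0.0012) and 3.03-fold higher in adipocytes (1.59, SE 0.10, adjusted p = 2.31e-08). Differentiation went with a 2.48-fold lower level in Aclyf/f cells (-1.31, adjusted p = 3.47e-08). In Acly-/- cells the log2 change was -0.21 (SE 0.10, adjusted p = 0.0755), which did not pass the test. Fbln2 was lower in the Acly-/- adipocyte library of each number, but nearly equal for number 2 (530 FPKM in preadipocytes and 529 in adipocytes). With the number as a block in a fit of the Acly-/- groups alone, the change was again -0.21 (adjusted p = 0.138). Without Acly-/- preadipocyte library 3, in which Fbln2 was highest, that change was -0.12 (adjusted p = 0.292), and the rise in preadipocytes was 0.40 (adjusted p = 0.00466). Over the alternatives tried, the adjusted p of the change in Acly-/- cells ranged from 0.0334 to 0.292, and 4 of them called it lower. The difference in change between genotypes was 1.10 (SE 0.14, adjusted p = 2.73e-05).

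Fbln1 (chromosome 15, 85206008 to 85286294, plus strand) encodes fibulin-1, a protein of basement membranes and of elastic fibres. In preadipocytes it stood at 137, 145 and 135 FPKM with Acly and at 68.8, 71.0 and 74.8 FPKM without. In adipocytes it stood at 17.0, 13.5 and 13.1 FPKM with Acly and at 26.8, 29.6 and 27.6 FPKM without. The sign of the genotype difference turned between the stages, with no overlap at either: 1.95-fold lower without Acly in preadipocytes (log2 fold change -0.95, SE 0.09, adjusted p = 1.99e-06) and 1.93-fold higher in adipocytes (0.91, SE 0.09, adjusted p = 1.76e-06). The fall with differentiation was 9.57-fold in Aclyf/f cells (-3.18, adjusted p = 1.11e-12) and 2.55-fold in Acly-/- cells (-1.32, adjusted p = 2.33e-08). These falls differed by 1.86 on the log2 scale (SE 0.13, adjusted p = 9.91e-08).

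Efemp2 (chromosome 19, 5474690 to 5481854, plus strand) encodes the fibulin that carries lysyl oxidase to elastin and without which mice form no intact elastic fibres. Preadipocyte levels were 407, 411 and 385 FPKM in Aclyf/f and 276, 290 and 347 FPKM in Acly-/- libraries. Adipocyte levels were 113, 104 and 93.3 FPKM in Aclyf/f and 150, 168 and 169 FPKM in Acly-/- libraries. As for Fbln1, the genotype difference turned sign between the stages without overlap at either. Efemp2 was 1.32-fold lower without Acly in preadipocytes (log2 fold change -0.41, SE 0.10, adjusted p = 0.00401) and 1.57-fold higher in adipocytes (0.65, SE 0.10, adjusted p = 7.35e-05). Its fall from preadipocytes to adipocytes was 3.87-fold in Aclyf/f cells (-1.95, adjusted p = 3.59e-10) and 1.87-fold in Acly-/- cells (-0.90, adjusted p = 2.34e-06). The changes differed by 1.05 (SE 0.13, adjusted p = 3.04e-05).

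Fbln7 (chromosome 2, 128863932 to 128897034, plus strand) encodes a fibulin that takes part in cell adhesion and whose C-terminal fragment is known to limit angiogenesis. It was at 13.6, 11.8 and 11.9 FPKM in Aclyf/f preadipocytes and at 1.40, 1.10 and 1.63 FPKM in Acly-/- preadipocytes. Its log2 fold change with Acly loss in preadipocytes (-2.50, SE 0.10, adjusted p = 2.5e-09) was the 34th largest of either sign among the 11777 genes tested. In adipocytes it was at 0.228, 0.229 and 0.248 FPKM with Acly and at 0.155, 0.158 and 0.263 FPKM without. These adipocyte values rest on about 4.5 to 10 fragments per library. The adipocyte genotypes overlapped, and their difference did not pass the test (-0.05, adjusted p = 0.684). Differentiation went with lower Fbln7 in both genotypes (-3.44, adjusted p = 2.02e-12 with Acly, and -0.99, adjusted p = 1.64e-06 without). With a pseudocount of 0.1 in place of 1 these were -5.22 and -2.34, since the log2(FPKM + 1) scale understates changes that end at low values. The change differed between genotypes by 2.45 (SE 0.14, adjusted p = 2.74e-08).

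Fbln5 (chromosome 12, 101746565 to 101819119, minus strand) encodes a fibulin that binds elastin, integrins and lysyl oxidase-like enzymes and is needed for elastic fibre assembly. It was at 3.76, 4.60 and 3.81 FPKM in Aclyf/f preadipocytes and at 4.27, 5.01 and 4.29 FPKM in Acly-/- preadipocytes. In adipocytes it was at 0.203, 0.341 and 0.267 FPKM with Acly and at 0.463, 0.560 and 0.456 FPKM without, on about 13 to 36 fragments per library. The preadipocyte genotypes overlapped (log2 fold change 0.13, SE 0.10, adjusted p = 0.315). The adipocyte genotypes did not overlap, with a mean 1.82-fold higher without Acly, yet the difference on the log2(FPKM + 1) scale missed the threshold (0.23, adjusted p = 0.059). With pseudocounts of 0.5 and 0.1 it was 0.37 (adjusted p = 0.0223) and 0.69 (adjusted p = 0.00519), and over all alternatives tried its adjusted p ranged from 0.00519 to 0.163. Fbln5 fell with differentiation by 1.99 on the log2 scale in Aclyf/f cells (adjusted p = 3.93e-10) and by 1.88 in Acly-/- cells (adjusted p = 1.78e-09). With the pseudocount of 0.1 these changes were -3.50 and -2.96. It was the 1 tested member whose change with differentiation was not shown to differ between genotypes (0.10, SE 0.14, adjusted p = 0.553).

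Efemp1 and Eln were measured on few fragments, so their values are given without a ratio of means, and a fit with no filter on low values is left to the closing part. Efemp1, a fibulin gene known for a form of inherited retinal degeneration (chromosome 11, 28853205 to 28926743, plus strand), stood at 0.432, 1.16 and 0.706 FPKM in Aclyf/f preadipocytes, about 6.3 to 19 fragments per library. In Acly-/- preadipocytes it stood at 0.239, 0.420 and 0.192 FPKM. It was at or under 0.0953 FPKM in every adipocyte library, and 2 of the 3 Acly-/- adipocyte libraries listed it at the floor. The elastin gene Eln (chromosome 5, 134702596 to 134747254, minus strand) stood at 0.186, 0.133 and 0.285 FPKM with Acly and at 0.0247, 0.0725 and 0.0795 FPKM without it in preadipocytes. In adipocytes it stood at 0.124, 0.116 and 0.212 FPKM with Acly and at 0.264, 0.168 and 0.0747 FPKM without. These are about 1.0 to 11 fragments per library, and the adipocyte genotypes overlapped. An exon of Gm30003 overlaps Eln on the opposite strand, so that at this level the source strand of those fragments is unknown.

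The sum over the 10 genes showed how unevenly the set is made up. In preadipocytes it was 1104 to 1178 FPKM with Acly and 1098 to 1305 FPKM without, and in adipocytes 271 to 318 FPKM with Acly and 663 to 768 FPKM without. The preadipocyte genotypes overlapped in this sum although 6 members differed singly. The adipocyte genotypes did not overlap, and both lay below the preadipocytes. As a share of all FPKM in a library the sum was 0.217% to 0.225%, 0.214% to 0.223%, 0.0543% to 0.0603% and 0.118% to 0.146% in the same order of groups. Fbln2 took 34.6% ± 0.404, 47.0% ± 1.57, 55.1% ± 1.5 and 68.1% ± 1.78 of the sum in the 4 groups (SD, n = 3 each). Its share thus stood higher without Acly at both stages and higher after differentiation in both genotypes, and no library's share overlapped that of another group. The share of Fbn1 stood at 15.8% and 20.7% in preadipocytes with and without Acly, and at 3.47% and 4.57% in adipocytes. The ratio of Fbln2 to Fbn1 was 2.2 ± 0.0781 in Aclyf/f and 2.30 ± 0.329 in Acly-/- preadipocytes, and 15.9 ± 0.346 and 15 ± 1.35 in the adipocytes.

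**Figure D3:**
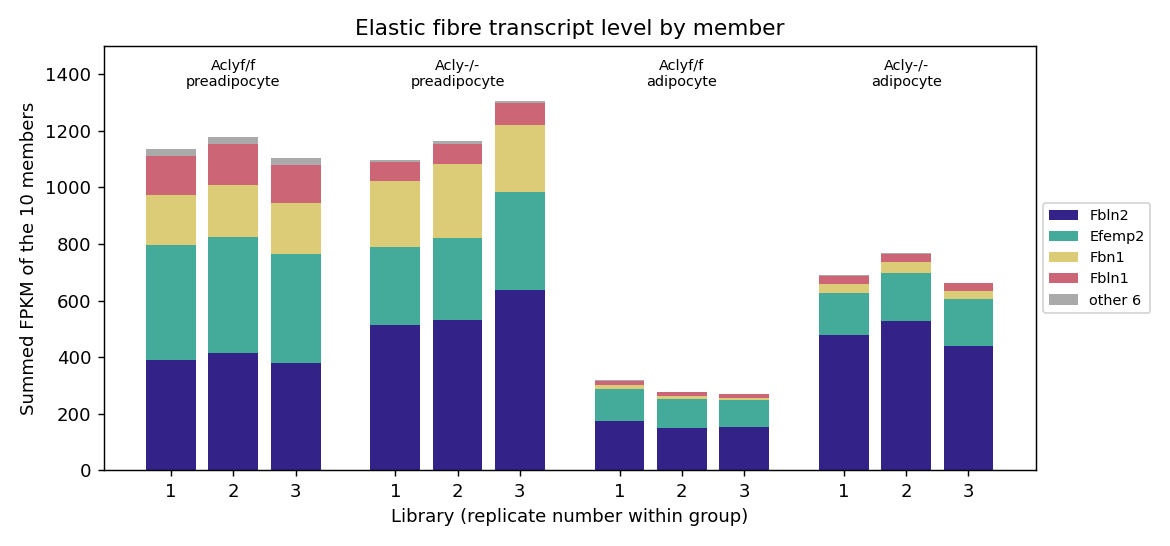
Summed FPKM of the 10 genes in each library, stacked by member, with the replicate number of the library on the horizontal axis. The Aclyf/f adipocyte bars reach 271 to 318 FPKM and the Acly-/- adipocyte bars 663 to 768 FPKM, and Fbln2 is the largest block outside the Aclyf/f preadipocytes, where Efemp2 is larger in libraries 1 and 3 and Fbln2 in library 2.

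The patterns of the members over the 12 libraries were compared as the root mean square difference of log2(FPKM + 1) after each gene was centred on its own mean, with group structure and depth shared by all genes. Among members, Efemp2 and Mfap5 were closest (0.33), followed by Fbln5 and Efemp2 (0.38), and Fbln2 and Fbln7 were farthest apart (1.42). This scale understates changes that end at low values. With differentiation in Aclyf/f cells Efemp2 fell 3.87-fold and Mfap5 9.31-fold, yet their log2 changes were -1.95 and -2.22. Mean Fbln5 fell there from 4.05 to 0.270 FPKM, with a log2 change of -1.99. Closeness of Fbln5, Fbln7 or Mfap5 to any gene is thus closeness on this scale, not of folds. Outside the set, Cd248 (0.15) and Col6a3 (0.17) were nearest to Fbln2. Col6a3, a chain of type VI collagen that itself forms beaded microfibrils, stood at 348 ± 6.21, 446 ± 19.4, 169 ± 17.0 and 443 ± 66.0 FPKM in the 4 groups. Nearest to Fbn1 were Akr1c14 (0.16) and Lrrc32 (0.16), which encodes the cell-surface anchor of latent TGF-beta. Lrrc32 stood at 41.3 ± 3.40, 65.4 ± 4.22, 1.96 ± 0.248 and 6.21 ± 0.990 FPKM in that order of groups. Fbln7 was nearest to Grem1 (0.23), a secreted BMP antagonist, and to Fblim1 (0.24). Grem1 stood at 7.30 ± 0.263 and 1.24 ± 0.339 FPKM in the preadipocytes and was listed at the floor in all 6 adipocyte libraries. Fbln1 was nearest to Plekho1 (0.12) and Tgfb1i1 (0.12), Efemp2 to Map3k14 (0.08) and Rom1 (0.09), Fbln5 to Mical2 (0.12) and Cgnl1 (0.12), and Mfap5 to Svep1 (0.12) and Pde8b (0.15).

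The wider elastic fibre pathway was described with 9 lists of genes, 90 genes in the table of which 68 were tested. The lists were chosen with earlier results of these data known, so their counts are a description. In preadipocytes without Acly 8 rose and 37 fell, which is 8 of 68 where 19.7% of all genes tested rose and 37 of 68 where 22.4% fell, with a median log2 fold change of -0.28 against -0.01 over all genes tested. In adipocytes without Acly 44 rose and 6 fell, where 25.6% and 29.2% of all genes did (median 0.43, all genes -0.02). With differentiation 7 rose and 55 fell in Aclyf/f cells, against 36.5% and 36% of all genes (median -1.35, all genes 0.00), and 17 rose and 35 fell in Acly-/- cells, against 30.4% and 31% (median -0.29, all genes 0.00). Some genes that fell, such as Mfap2, Itga8, Ltbp2 and Cnn1, passed the filter on low values through preadipocytes alone, which set that direction. Ltbp4, which rose, needed the adipocytes to pass. Mfap2 passed through Aclyf/f preadipocytes alone, which also set its place among the 37 that fell without Acly. The change with differentiation was shifted upward in Acly-/- cells for 50 of the 68 and downward for 3, against 23.7% and 26.4% of all genes (median 0.84, all genes -0.02). The 50 include Mfap2, Itga8 and Ltbp2 (0.98, 0.62 and 0.73). Without Acly these genes changed by -0.98, -0.60 and -0.70 in preadipocytes and by -0.0007, 0.02 and 0.02 in adipocytes. Their upward shifts thus restate lower preadipocyte levels and add no support to the count. Under 4 other scalings and without Acly-/- preadipocyte library 3, the counts over all lists ranged from 5 to 8 higher and 36 to 42 lower in preadipocytes without Acly, and from 39 to 46 higher with 6 lower in adipocytes. The counts of single lists that follow rest on few genes, and the same shares of all genes (19.7% higher and 22.4% lower in preadipocytes, 25.6% and 29.2% in adipocytes) are their background.

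**Figure D4:**
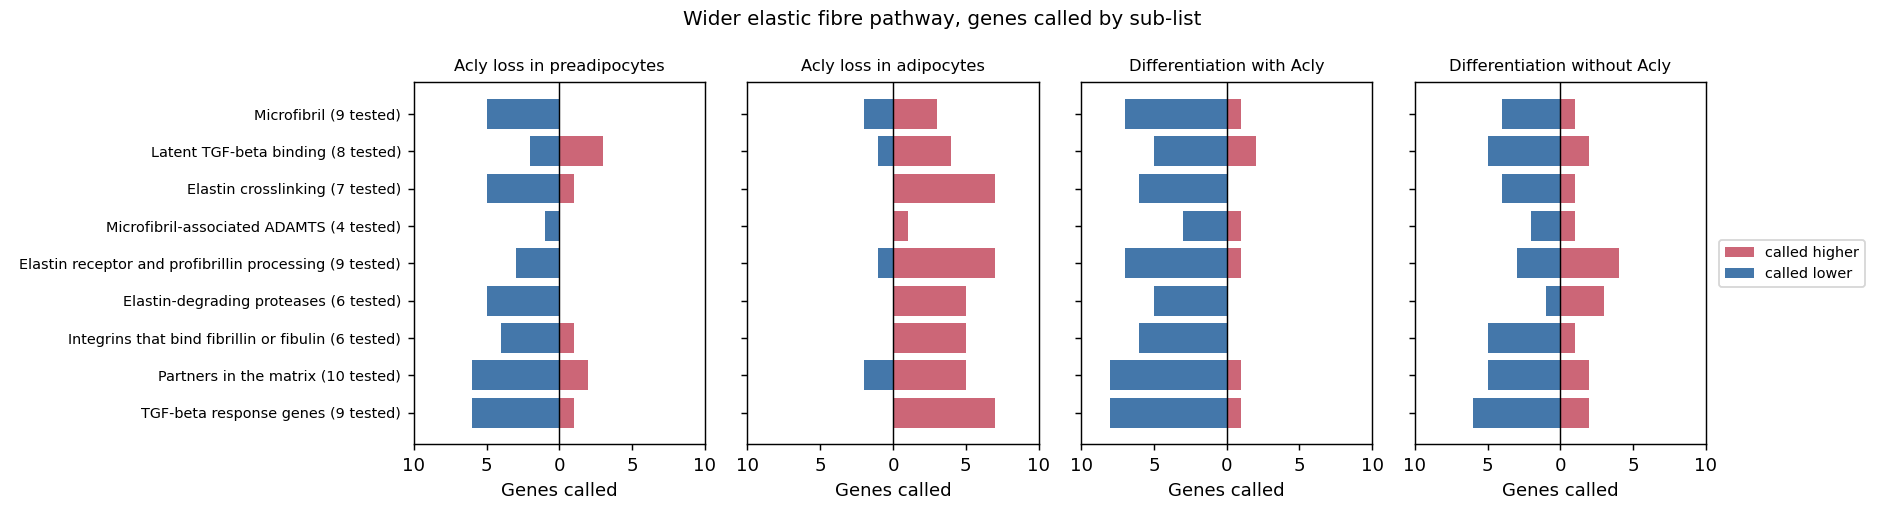
Number of genes called higher (right of 0) and lower (left of 0) at an adjusted p under 0.05 in each of the 9 pathway lists, for Acly loss at each stage and for differentiation in each genotype. In adipocytes all 7 tested genes of the elastin crosslinking list are called higher without Acly (6 in 2 of the 4 other scalings), and in preadipocytes 5 of the same list are called lower.

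The list of elastin crosslinking had 7 tested genes, the 5 lysyl oxidase genes Lox and Loxl1 to Loxl4, the copper transporter gene Atp7a and Bmp1, which encodes a proteinase that activates lysyl oxidase. All 7 were higher in adipocytes without Acly and 0 lower, while in preadipocytes 1 was higher and 5 lower. In 2 of the 4 other scalings, 6 of the 7 were called higher in adipocytes. Lox, the main lysyl oxidase, stood at 1226 ± 103 and 1210.0 ± 61.6 FPKM in preadipocytes with and without Acly, and at 354 ± 35.1 and 1166 ± 74.2 FPKM in adipocytes. It was higher without Acly in adipocytes (log2 fold change 1.72, adjusted p = 6.66e-09), and in preadipocytes the difference was -0.02 (adjusted p = 0.902). Loxl3 was the 1 gene of the list higher without Acly in preadipocytes, at 33.7 ± 1.98 and 76.2 ± 10.6 FPKM (1.15, adjusted p = 1.74e-06). Lox thus stood at 1090.5 FPKM or more in the 9 libraries outside the Aclyf/f adipocytes, while Eln, whose product it crosslinks, was at most 0.285 FPKM in any library.

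Proteases that can degrade elastin or its scaffold were lower without Acly in preadipocytes (0 of 6 tested rose, 5 fell) and higher in adipocytes (5 rose, 0 fell), where 4 were called higher with libraries at the same FPKM sum. Mmp2, a gelatinase, stood at 70.8 ± 2.27 and 28.0 ± 2.11 FPKM in preadipocytes with and without Acly (-1.31, adjusted p = 1.07e-06). In adipocytes it stood at 12.6 ± 2.54 and 44.7 ± 4.49 FPKM (1.76, adjusted p = 3.62e-08). Mmp14, the membrane-bound activator of Mmp2, stood at 372 ± 36.5, 170 ± 13.5, 54.8 ± 5.74 and 163 ± 14.0 FPKM in the 4 groups. Its genotype difference likewise turned from -1.13 (adjusted p = 1.16e-06) to 1.56 (adjusted p = 3.03e-08). Ctsk, a cathepsin that cleaves elastin, stood at 19.5 ± 1.37 FPKM with Acly and 85.5 ± 4.84 FPKM without it in adipocytes (2.08, adjusted p = 1.63e-10). Fbln1 and Efemp2 shared this turn of sign with Mmp2 and Mmp14, while Fbn1 and Fbln2 were higher without Acly at both stages.

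A list of latent TGF-beta joined the 3 ligand genes Tgfb1 to Tgfb3 with genes of proteins that hold the latent ligand, Ltbp1 to Ltbp4 and Lrrc32. Of these 8, 3 rose (Ltbp3, Lrrc32 and the ligand gene Tgfb3) and 2 fell (Ltbp2 and the ligand gene Tgfb1) in preadipocytes without Acly. In adipocytes 4 rose (Ltbp1, Lrrc32, Tgfb2 and Tgfb3) and 1 fell (Tgfb1). The preadipocyte median of this list lay near 0 and changed sign with the scaling (0.04 as reported, -0.03 with libraries at the same FPKM sum, -0.02 without Acly-/- preadipocyte library 3). Ltbp1, which ties latent TGF-beta to fibrillin, stood at 49.0 ± 0.927 and 48.4 ± 3.41 FPKM in preadipocytes with and without Acly and at 1.57 ± 0.0306 and 6.81 ± 0.551 FPKM in adipocytes (1.60, adjusted p = 1.99e-09). Tgfb2 stood at 4.93 ± 0.267 FPKM with Acly and 24.7 ± 1.99 FPKM without it in adipocytes (2.11, adjusted p = 9.86e-10). Genes known to respond to TGF-beta, 9 tested, were called higher 1 time and lower 6 times in preadipocytes, and higher 7 times and lower 0 times in adipocytes. The 1 call higher in preadipocytes, Tgfbi, was lost in 3 of the 4 other scalings and without Acly-/- preadipocyte library 3. This gene of a secreted adhesion protein stood at 5.02 ± 0.242 FPKM with Acly and 28.6 ± 2.19 FPKM without it in adipocytes (2.29, adjusted p = 1.03e-10), and Cnn1, a contractile gene, at 19.4 ± 0.915 FPKM with Acly and 4.09 ± 0.464 FPKM without it in preadipocytes (-2.00, adjusted p = 1.59e-08).

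A list of further genes named for or linked to microfibrils had 9 tested. It holds Mfap1a and Mfap1b, whose products are known as nuclear splicing proteins, the membrane protein genes Mfap3 and Mfap3l, and Vwa1, whose product binds perlecan, so that it is not a list of microfibril proteins alone. In preadipocytes without Acly 5 were called lower (Mfap2, Mfap3, Emilin2, Vwa1 and Sned1) and 0 higher, and under the other scalings 4 to 6 were called lower. In adipocytes 3 were called higher (Mfap3l, Emilin1 and Sned1) and 2 lower (Emilin2 and Vwa1), with a median log2 fold change of 0.00, and under the other scalings 2 to 4 were called higher. Emilin2, a glycoprotein at the face between elastin and microfibril, stood at 86.9 ± 2.24 FPKM with Acly and 30.3 ± 2.13 FPKM without it in preadipocytes (-1.49, adjusted p = 1.59e-08). Integrins that bind fibrillin or fibulins, 6 tested, were called higher 1 time and lower 4 times in preadipocytes and higher 5 times in adipocytes, where Itga5 stood at 37.4 ± 3.82 FPKM with Acly and 78.3 ± 6.26 FPKM without (1.05, adjusted p = 6.7e-07). The call higher in preadipocytes was lost in 2 of the 4 other scalings and without Acly-/- preadipocyte library 3, and in the same 2 scalings 4 were called higher in adipocytes. Itga8, among those called lower, had a mean of 1.59 FPKM in Aclyf/f preadipocytes and would not have passed the filter without that group. Genes of the elastin receptor and of profibrillin processing, 9 tested, were called lower 3 times and higher 0 times in preadipocytes, and higher 7 times and lower 1 time in adipocytes. The 3 calls lower became 5 in 2 of the 4 other scalings. Of the elastin receptor genes, Glb1 and Ctsa were called higher in adipocytes, and Neu1 was the 1 called lower (-0.49, adjusted p = 0.00156). Calr, a chaperone of the endoplasmic reticulum, stood at 234 ± 19.2 and 494 ± 53.0 FPKM in adipocytes with and without Acly (1.07, adjusted p = 4.78e-07). Of 4 tested ADAMTS-family genes tied to microfibrils, 1 fell in preadipocytes and 1 rose in adipocytes, in both cases Adamtsl5 (-0.47, adjusted p = 0.00788, and 0.34, adjusted p = 0.0317). A count of 1 in 4 is near the share over all genes. The rise was lost with libraries at the same FPKM sum. Matrix partners of the fibulins and fibrillin, 10 tested, were called higher 2 times and lower 6 times in preadipocytes, and higher 5 times and lower 2 times in adipocytes. Dcn, the proteoglycan decorin, stood at 86.0 ± 12.4 FPKM with Acly and 15.3 ± 2.94 FPKM without it in preadipocytes (-2.42, adjusted p = 2.56e-08). Bgn, the related biglycan, stood at 475 ± 20.5 FPKM with Acly and 1329.75 ± 75.0 FPKM without it in adipocytes (1.48, adjusted p = 3.85e-09).

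Several cell type and state markers moved with these genes, and their part in the results was not tested. Markers of preadipocytes (6 genes in the table, with Dlk1 under 0.4 FPKM on average in each group) summed to 645 to 749 FPKM with Acly and 839 to 1162 FPKM without it in preadipocytes, and to 143 to 207 FPKM with Acly and 701 to 748 FPKM without it in adipocytes. Of the 4 tested, 3 were called higher and 0 lower without Acly in adipocytes. In preadipocytes 2 were called higher and 1 lower. The sum follows Ly6a, at 467 FPKM with Acly and 834 FPKM without it in preadipocytes on average, while Pdgfra was lower there without Acly, at 131 and 72.1 FPKM (-0.86, adjusted p = 2.97e-06). Markers of smooth muscle and pericytes (10 genes) summed to 433 to 447, 140 to 153, 28.6 to 40.7 and 52.9 to 61.8 FPKM in the 4 groups. Acta2, which with Cnn1 is also among the genes known to respond to TGF-beta, made up 401, 129, 17.4 and 44.8 FPKM of that on average. Myh11, the myosin heavy chain of smooth muscle, followed another pattern, with means of 0.116, 0.134, 6.96 and 3.14 FPKM, and was lower without Acly in adipocytes (-0.94, adjusted p = 4.79e-06). Of the 6 tested genes of this list, 0 were called higher and 4 lower without Acly in preadipocytes, and 2 higher (Acta2 and Cnn1) and 1 lower (Myh11) in adipocytes. Of the pericyte markers, Kcnj8, Abcc9 and Cspg4 had group means under 0.1 FPKM, Rgs5 of at most 0.434 FPKM, and Notch3 of 1.81, 1.12, 0.936 and 0.941 FPKM. Markers of Dpp4-positive progenitors (9 genes) summed to 363 to 377, 351 to 361, 46.6 to 58.0 and 102 to 108 FPKM in the same order, with Dpp4, Pi16, Cd55 and Bmp7 under 0.1 FPKM in each group. Macrophage and leukocyte markers (8 genes) summed to at most 7.63 FPKM except in Acly-/- adipocytes, where they summed to 30.6 to 36.3 FPKM. The lysosomal gene Cd68 had means of 1.91, 2.75, 1.5 and 32.6 FPKM and Cd14 of 3.63, 3.32, 1.36 and 1.46 FPKM in the 4 groups. Adipocyte markers were called lower without Acly in 6 of 7 tested in adipocytes, so that lower adipocyte markers and higher Fbn1, Fbln1, Fbln2 and Efemp2 were found in the same libraries. Markers of endothelium (7 genes), mesothelium (7 genes) and cartilage or tendon (6 genes) summed to at most 2.22, 6.41 and 10.2 FPKM in any library.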

How the data were processed

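RNA sequencing of 12 libraries gave 1 table of 24341 genes. The deposited values are FPKM, per the file headers. The tools bcl2fastq, Bowtie2 2.2.6 and Cufflinks 2.2.1 and the build mm10 are listed in the submitters' processing notes. How genes were filtered and annotated and how strand was handled is not given in the sources used here. No counts were used, and depth was estimated from the steps that 1 fragment makes in low FPKM values, using GENCODE transcripts at least 3000 bases long.

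The test took the 11777 genes that reached 1 FPKM in 3 or more of the 12 libraries and left out 12564. Values entered limma 3.58.1 (R 4.3.3) as log2(FPKM + 1), as 4 group means with a variance prior that follows a trend, in 5 contrasts. A pseudocount of 1 understates changes of low genes. Two-sided p-values were adjusted over all of these by Benjamini-Hochberg, with calls at an adjusted p under 0.05. Changes in brackets are log2 fold changes from this fit, and folds are ratios of mean FPKM. The fit was run on simulated data with independent normal noise and changes in a small set of better expressed genes. That run does not cover changes of genes near the floor, or a share of changed genes as large as here. Python 3.11.15, pandas 2.3.3, numpy 2.4.6 and matplotlib 3.10.9 made the summaries and figures. Gene positions are those deposited with the expression values, on mm10, while strands, transcript lengths and exon overlaps are from GENCODE. Promoter windows are those of RefSeq on GRCm38.p6.

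All 10 members are named. From each pathway list up to 2 genes per contrast may be named, those called with the largest log2 fold change of either sign, besides genes named in describing them (Lox and Mmp14 also in contrasts where they were not among those). For each tested member the 2 genes nearest in pattern are named. Col6a3, Lrrc32 and Grem1 are given with levels, and single genes of the marker, crosslinking, TGF-beta, microfibril and elastin receptor lists are named, by choice after their values were seen. The members and lists were chosen with earlier results of these data known. Alternatives changed the pseudocount, filter, scaling, variance prior, groups in the fit, a replicate block, and left out each library in turn. Same-numbered libraries deviated from their group means with correlations of -0.414 to 0.147, and differently numbered libraries of different groups with -0.168 to 0.416. Between Acly-/- preadipocytes and adipocytes all 3 same-numbered pairs were over 0.1 (0.123 to 0.147, at most 0.0215 for other numbers). In the other 5 pairs of groups it was not so. This is at most a weak hint of pairing, from the data and not from the labels, since differently numbered libraries of other groups reached higher values. A fit of the Acly-/- preadipocytes and adipocytes alone with the number as a block was added after seeing the data. Counts over the pathway lists under other scalings and without 1 library were added after seeing the data.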

Additional observations from a re-analysis of the deposited data

Results flagged for a closer look

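For 6 of the 7 tested genes the change with differentiation differed between Acly-/- and Aclyf/f cells by an interaction test in limma, adjusted over all 11777 genes tested, of which 50.2% passed. The difference (Acly-/- change minus Aclyf/f change, on the log2(FPKM + 1) scale) was 2.45 for Fbln7 (adjusted p = 2.74e-08), 1.86 for Fbln1 (adjusted p = 9.91e-08) and 1.20 for Mfap5 (adjusted p = 0.000119). It was 1.15 for Fbn1 (adjusted p = 4.85e-05), 1.10 for Fbln2 (adjusted p = 2.73e-05) and 1.05 for Efemp2 (adjusted p = 3.04e-05). For Fbln7 the difference came with preadipocyte levels that already lay 9.05-fold apart and adipocyte levels of at most 0.263 FPKM in both genotypes. It thus restates the difference between preadipocyte genotypes. For Mfap5 the adipocyte genotypes overlapped, and their difference did not pass the test. For Fbn1 and Fbln2, Acly-/- libraries were higher at both stages. For Fbln1 and Efemp2 they were lower before differentiation and higher after it.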

How the results depend on the processing

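Each of the 35 results on single genes (7 genes in 5 contrasts) was recomputed under up to 24 alternatives, 12 of which left out 1 library. Of 800 values, 790 kept their direction and their side of the threshold, 10 passed it where the reported fit did not, 0 lost it and 0 changed sign. The 10 were Fbln5 with Acly loss in adipocytes (5 alternatives, adjusted p = 0.00519 to 0.0438), Mfap5 in the same contrast without Acly-/- adipocyte replicate 3 (0.32, adjusted p = 0.0489), and Fbln2 with differentiation in Acly-/- cells (4 alternatives, adjusted p = 0.0334 to 0.0448). The cause was not tested. Over all alternatives the number of members called was 6 to 7 with Acly loss in preadipocytes, 4 to 5 in adipocytes, 6 to 8 with differentiation in Aclyf/f cells, 5 to 7 in Acly-/- cells, and 6 for the interaction, with Fbln5 not tested under the stricter filter of 5 FPKM in 3 libraries. With no filter on low values all 10 members were tested and Efemp1 was called lower without Acly in preadipocytes (-0.44, adjusted p = 0.0449) and in Aclyf/f adipocytes against their preadipocytes (-0.70, adjusted p = 0.00213). With a replicate block from the numbers in the titles, 6, 5, 7, 6 and 6 members were called in the 5 contrasts. With the block and the Acly-/- groups alone in the fit, 6 members were called for differentiation in Acly-/- cells, and the block ended no call of a member. At the estimated depths, Eln, Efemp1 and, in adipocytes, Fbln7 rest on few fragments, so differences in them were not detectable at this depth unless large.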
